A study of Mus musculus with 3 samples.

Results

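The 10 genes described here encode glycoproteins that fibroblasts secrete into the extracellular matrix: Fn1, Fbn1, Fbn2, Eln, Tnc, Postn, Sparc, Thbs1, Thbs2 and Dcn. They were listed by name as a functional group, with earlier results of these data known, and are 10 of the 22367 protein-coding genes of the annotation. Each locus was taken as the gene body, from the outermost annotated start to the outermost end, with 20 kb on both sides. The 10 loci together cover 1118854 bases of mm9. Nuclear factor I (NFI) binding was measured over them by chromatin immunoprecipitation and sequencing (ChIP-Seq) in primary mouse embryonic fibroblasts (MEFs), which are connective tissue cells taken from embryos of 14.5 days. All cells were from the C57BL/6 strain at passages 6 to 7. The 3 libraries were an NFI ChIP from wild-type cells, an NFI ChIP from NFI-C knock-out cells and input DNA from wild-type cells, with 1 library per condition, so no value has a replicate and no test across samples was possible.

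Matrix glycoproteins join collagen fibrils, elastic fibres and cell surface receptors into a mesh, and fibroblasts are a main source of them in connective tissue. Fibronectin carries cell adhesion, fibrillins and elastin build elastic fibres, and matricellular proteins such as tenascin C and the thrombospondins modify how cells respond to the matrix. NFI proteins are a family of transcription factors that bind as dimers to a palindrome, and the antibody used, NFI (H300), was raised against the family and not against NFI-C alone. In the knock-out cells the Nfic gene was disrupted by an insertion, and the other members of the family were not targeted. H3K4me3 marks promoters in use, H3K36me3 lies over transcribed gene bodies, and H3K27me3 is deposited by Polycomb complexes at silenced or poised genes.

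In the order wild-type ChIP, knock-out ChIP, input, the libraries held 14358325, 16330049 and 12029975 reads, of which 68.1%, 66.3% and 45.1% mapped to a single place. This order is kept below wherever 3 tag counts stand together. With at most 1 tag kept per position and strand, 3350071, 3132004 and 4100449 tags remained, or 1.31, 1.22 and 1.60 per kb of the genome. Ratios between libraries were scaled by these totals. Their 95% intervals are exact binomial intervals and cover counting error only, since reads amplified by PCR without molecular identifiers are not independent molecules. Nfic, the targeted gene, held 50 wild-type, 66 knock-out and 151 input tags in its body, which cannot check the genotype because an insertion may leave these positions in place. The title of the knock-out library gives its genotype and was followed, although its description speaks of wild-type MEFs.

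The sequences of 4 deposited NFI sites at these genes are shown, each the deepest site of its gene in the wild-type ChIP when sites with 5 or more input tags are set aside. Ties went to fewer input tags and then to the lower coordinate, and a site of Fbn2 with 7 wild-type tags is not shown. The 16 bases of the deposited interval are in capitals, and all are the plus strand of mm9. The site of Fbn1 lies in an intron at chr2:125130487-125130566 with 7 tags from the wild-type ChIP, 3 from the knock-out ChIP and 0 from the input in 300 bp. That of Thbs1 lies downstream of the gene at chr2:117954613-117954692 with 6, 0 and 0 tags. That of Eln lies in an intron at chr5:135221711-135221790 with 5, 1 and 0 tags, and that of Fn1 lies downstream at chr1:71629348-71629427 with 4, 1 and 0 tags.
Fbn1: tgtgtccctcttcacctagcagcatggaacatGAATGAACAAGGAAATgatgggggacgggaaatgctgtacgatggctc
Thbs1: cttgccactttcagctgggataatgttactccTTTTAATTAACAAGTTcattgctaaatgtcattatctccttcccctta
Eln: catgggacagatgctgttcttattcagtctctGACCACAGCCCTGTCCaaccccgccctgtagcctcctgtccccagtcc
Fn1: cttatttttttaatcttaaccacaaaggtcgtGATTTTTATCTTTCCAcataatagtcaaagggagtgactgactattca

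None of these 4 sequences holds the NFI palindrome TTGGCANNNTGCCAA when up to 2 mismatches are allowed over its 12 fixed positions. No match of that kind was found in the 300 bp of any of the 54 deposited sites at the 10 genes (0 of 54, exact 95% interval up to 6.60%), while 3.01% of all 39807 deposited sites held one. Counting single arms, TTGGCA on either strand without mismatch was present at 10 of the 54 sites (18.5%, exact interval 9.25% to 31.4%) and at 18.6% of all deposited sites. The closest fit to the palindrome had 3 mismatches at 10 sites, 4 at 21 sites, 5 at 22 sites and 6 at 1 site. The loci did hold 45 palindrome matches not wholly inside these windows, 43 of them with 2 mismatches. Summed over them, 300 bp held 33 wild-type, 35 knock-out and 31 input tags, or 1.87, 2.12 and 1.43 times the genome average. The match closest to a deposited site started 147 bp from one in Thbs2 and crossed the edge of its 300 bp window. It had 2, 0 and 1 tags. Another started 187 bp from a site in Fbn1 and had 4, 5 and 1 tags. Only 2 of the 45 had 1 mismatch. They are shown with a second match upstream of Sparc, which had the most knock-out tags, and capitals mark the fixed positions that fit the palindrome.
Eln, intron, chr5:135217264-135217278: cTGGCAcccTGCCAA
Sparc, upstream, chr11:55237995-55238009: TTGGCtcacTGCCAA
Sparc, upstream, chr11:55237415-55237429: TTGGCtcagaGCCAA

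The match in Eln, 5840 bp into the gene, had 3 wild-type tags in 300 bp, 0 from the knock-out ChIP and 1 from the input. At Sparc, the match at -4420 bp from the start had 2, 0 and 0 tags, and the match at -3840 bp had 2, 7 and 3. None of these 3 windows contained a deposited site. The second Sparc match was chosen for display after its values were seen.

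Deposited NFI sites lay within 20 kb of all 10 genes, and their number differed widely between them. A site was present within 20 kb at 62.9% of all protein-coding genes, and at 75.1% of the genes whose length fell within the range of these 10. The 54 sites correspond to 4.83 sites per 100 kb, against 1.94 summed over the same windows of all protein-coding genes and 1.56 over the genome. The median of the 10 genes was 4.08 sites per 100 kb and that of all genes 1.62. In the gene bodies alone, 37 sites gave 5.15 per 100 kb, against 2.05 for all gene bodies. The genes fell into 2 kinds: Thbs1, Tnc, Thbs2, Fn1, Fbn1 and Fbn2 had 5 to 13 sites each, and Postn, Sparc, Eln and Dcn had 1 each. The sites were called by the authors on the wild-type ChIP alone, so their number says nothing of the knock-out cells.

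**Figure D1:**
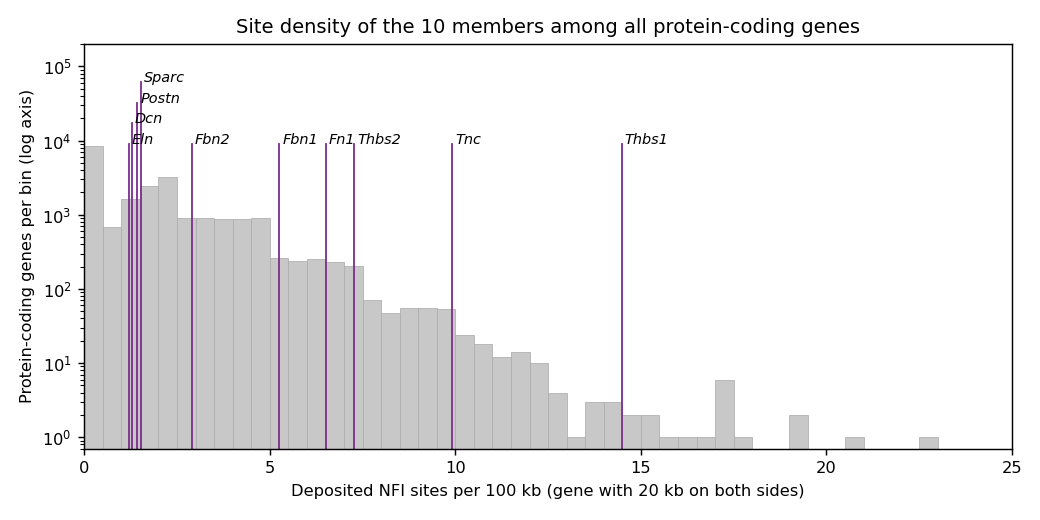
The x axis gives deposited NFI sites per 100 kb of each gene with 20 kb on both sides, and the grey bars count protein-coding genes per bin on a log axis (a few genes beyond 25 are off the axis). Purple lines mark the 10 matrix glycoprotein genes, from Eln at 1.20 and Dcn at 1.27 to Tnc at 9.91 and Thbs1 at 14.5.

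Fn1 encodes fibronectin, the adhesive glycoprotein that links integrins with collagen. It lies on chromosome 1, 71632094 to 71699774 in mm9 (ENSMUSG00000026193.8, minus strand), and had 7 deposited sites, or 6.50 per 100 kb, a higher density than 96.3% of protein-coding genes. Of its 5 sites in the body, 4 lay in coding exons and 1 in an intron, and single sites lay upstream and downstream. The upstream site, at -1148 bp, lies inside the gene Apol7d, whose own start is 1009 bp away. Over the Fn1 body there were 162, 154 and 149 tags. After scaling, both ChIP libraries exceeded their shared input, with ratios of 1.33 in the wild-type (1.06 to 1.67) and 1.35 in the knock-out ChIP (1.07 to 1.71).

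Among the elastic fibre genes, the long fibrillin genes carried many sites and Eln a single one. Fbn1, the gene of fibrillin-1, the main component of microfibrils in adult tissue, spans 207 kb (ENSMUSG00000027204.7, chromosome 2, 125126330 to 125333729, minus strand). It had 13 sites, the most of the 10 genes, at 5.25 per 100 kb. All 12 sites in its body were intronic, and none lay upstream of its start. The Fbn1 body held 431 wild-type, 397 knock-out and 423 input tags, with a wild-type ratio over input of 1.25 (1.09 to 1.43) and a knock-out ratio over input of 1.23 (1.07 to 1.41). Fbn2 encodes fibrillin-2, the fibrillin most prominent before birth, and is almost as long as Fbn1 at 201 kb (ENSMUSG00000024598.7, chromosome 18, 58168277 to 58369580, minus strand). It had 7 sites at 2.90 per 100 kb, 6 of them intronic and over 100 kb from the start. Unlike Fbn1, its body showed no excess over the input: the tags were 306, 271 and 387, and the wild-type ratio was 0.968 (0.830 to 1.13). The wild-type ratio of Fbn1 was 1.29 times that of Fbn2 (exact conditional interval 1.05 to 1.58, counting error only). Eln, the gene of tropoelastin, which forms the core of elastic fibres, spans 43.5 kb (ENSMUSG00000029675.9, chromosome 5, 135179651 to 135223111, minus strand). It had 1 site, in an intron 1361 bp from the start, and a density above that of 42.8% of genes. Its body tags were 66, 53 and 82, with a wild-type ratio of 0.985 (0.701 to 1.38).

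The matricellular genes ranged from 1.43 sites per 100 kb at Postn to 14.5 at Thbs1. Thbs1 encodes thrombospondin 1, an inhibitor of vessel growth that also activates latent TGF-beta, and is the shortest of the 10 genes at 15.3 kb (ENSMUSG00000040152.8, chromosome 2, 117937612 to 117952869, plus strand). Its 8 sites were denser than those of 99.9% of genes. There were 3 sites upstream, 4 in the body (2 in coding exons, 1 in an intron, 1 in a UTR exon) and 1 downstream. Its body gave 70, 65 and 56 tags, and the ratios of 1.53 (1.06 to 2.21) for the wild-type and 1.52 (1.05 to 2.21) for the knock-out ChIP over input were the highest of the 10 genes. Input tags were also densest here, at 2.29 times the genome average per kb.

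Thbs2, its close relative, spans 28.8 kb (ENSMUSG00000023885.7, chromosome 17, 14802507 to 14831269, minus strand) and had 5 sites at 7.27 per 100 kb, 3 of them intronic and 2 downstream. Its body tags did not share the excess of Thbs1: they numbered 52, 47 and 67, with a wild-type ratio of 0.950 (0.648 to 1.39). The ratio of Thbs1 was 1.61 times that of Thbs2, with an exact conditional interval of 0.943 to 2.75 that included 1. Tnc, the gene of tenascin C, an anti-adhesive protein of developing and healing tissue, spans 60.9 kb (ENSMUSG00000028364.8, chromosome 4, 63620819 to 63681760, minus strand). It had 10 sites at 9.91 per 100 kb, more than in 99.5% of genes, with 3 upstream, 5 in introns and 2 downstream. Tags over Tnc numbered 144 in wild-type ChIP, 118 in knock-out ChIP and 127 in input, giving 1.39 (1.09 to 1.78) for the wild-type and 1.22 (0.939 to 1.58) for the knock-out ChIP over input.

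Postn and Sparc had a single site each. Postn encodes periostin, which takes part in collagen cross-linking, and its site lay upstream at -2224 bp (ENSMUSG00000027750.9, chromosome 3, 54165031 to 54194961, plus strand). The Postn body had 55, 42 and 51 tags and a wild-type ratio of 1.32 (0.885 to 1.97). Sparc encodes a collagen-binding protein of remodelling tissue, and its site was intronic, 14321 bp from the outermost start and 3594 bp from the nearest annotated start (ENSMUSG00000018593.6, chromosome 11, 55208002 to 55233582, minus strand). The Sparc body had 58, 52 and 60 tags and a ratio of 1.18 (0.810 to 1.73).

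Dcn, the gene of decorin, is the only proteoglycan of the group. Decorin binds collagen fibrils and TGF-beta. The gene spans 38.5 kb (ENSMUSG00000019929.8, chromosome 10, 96942245 to 96980777, plus strand) and had 1 site, upstream at -3733 bp, which gave it a density above that of 44% of genes. Over its body lay 55 wild-type, 46 knock-out and 55 input tags, with a wild-type ratio of 1.22 (0.827 to 1.81). Like Postn, Dcn had no site within its body.

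**Figure D2:**
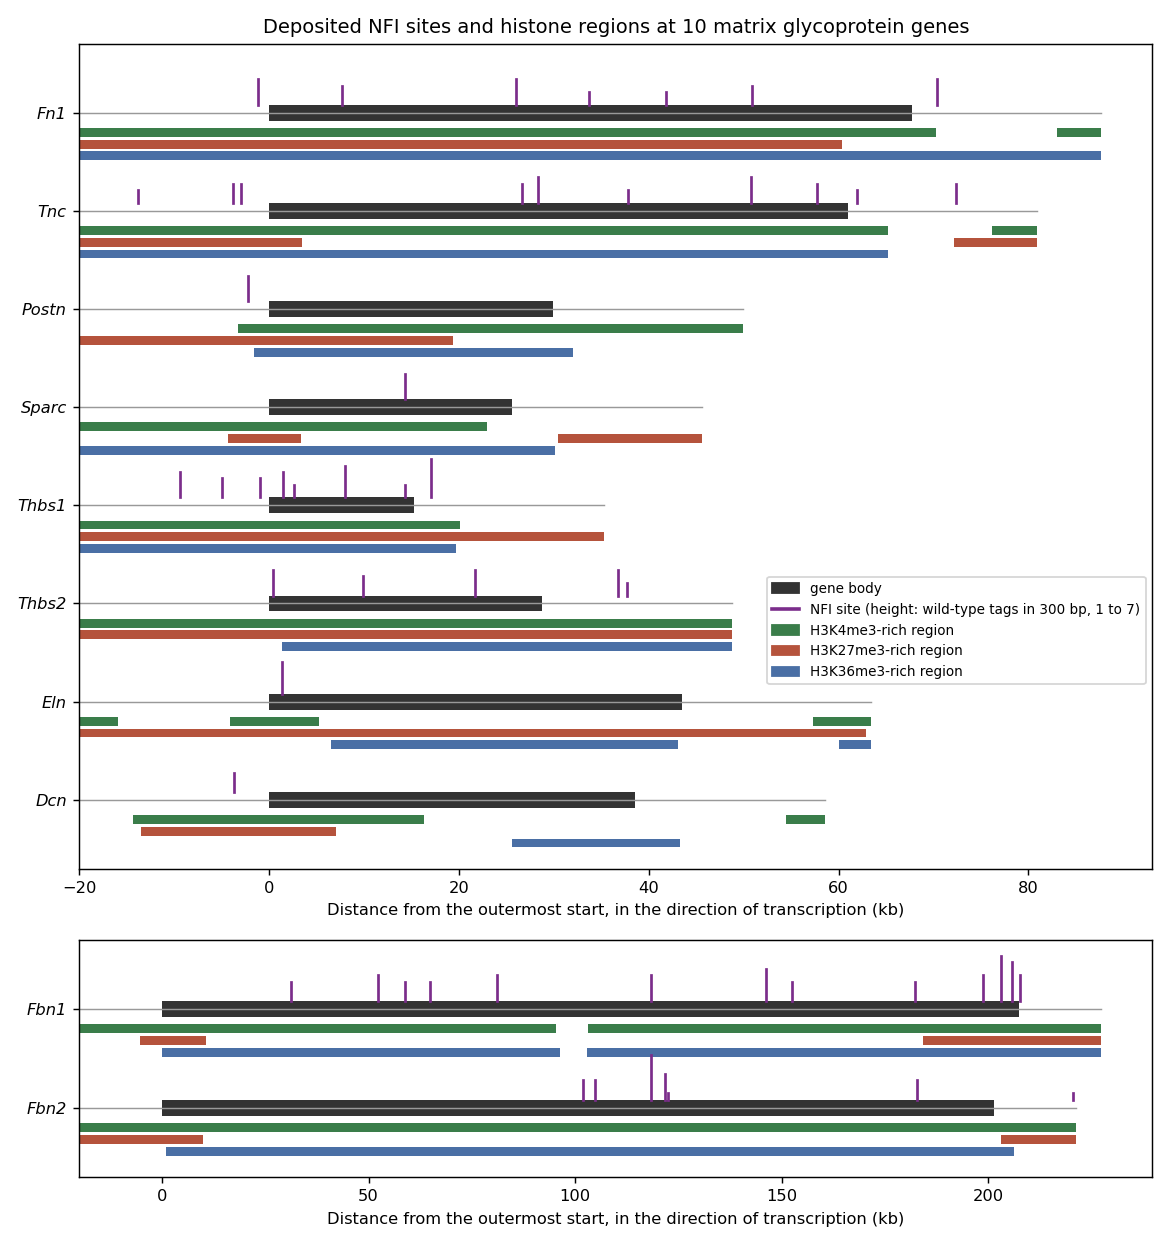
Each row is 1 gene drawn from its outermost start in the direction of transcription, with distance in kb on the x axis and separate scales for the fibrillin genes and the other 8. Black bars are gene bodies, purple ticks are the 54 deposited NFI sites with a height of 1 to 7 wild-type tags in 300 bp, and coloured bars are regions rich in H3K4me3, H3K27me3 and H3K36me3, with 8 and 10 sites at the loci of Thbs1 and Tnc and 1 each at Postn, Sparc, Eln and Dcn.

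Of the 54 sites, 30 were in introns of the genes, 6 in coding exons, 1 in a UTR exon, 9 upstream and 8 downstream. For 32 of them the nearest annotated start was that of the gene itself. Promoters, taken as 5 kb upstream of the outermost start, held a site in 5 of the 10 genes, against 11.8% of all protein-coding genes. These were Fn1 (-1148 bp), Tnc (-3007 and -3846 bp), Postn (-2224 bp), Thbs1 (-987 and -4984 bp) and Dcn (-3733 bp). Only Thbs1 had a site within 1 kb upstream of its start. Of these 7 promoter sites, 0 had 5 or more wild-type tags in the 300 bp around them by the count used here, which does not shift tags, and 5, 1 in each gene, had 5 or more in 600 bp.

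Over the gene bodies, tags of the wild-type ChIP were compared with the input to ask how much of the signal exceeded that of non-precipitated chromatin. Summed over the 10 bodies there were 1399, 1245 and 1457 tags. The wild-type ChIP thus exceeded the input 1.18-fold (1.09 to 1.27). The median of the 10 ratios was 1.24, and that of the 16551 protein-coding genes with enough tags was 0.852. These genes were not matched for length: the median span was 41.0 kb for the 10 genes and 15.4 kb for all protein-coding genes. Past a ratio of 1.5 there was 1 of the 10 genes, Thbs1, against 3.72% of all genes. Below the inverse of that ratio there were 0 of 10, against 29.6% of all genes. The interval lay above 1 at 4 genes, Fn1, Fbn1, Tnc and Thbs1, against 5.64% of all genes, and below 1 at none, against 26.1%. These shares include every gene with at least 20 summed tags and were not matched for tag number, on which the width of an interval depends. In the order of the ratios, from Thbs1 through Tnc, Fn1, Postn, Fbn1, Dcn, Sparc, Eln and Fbn2 to Thbs2, the interval of every neighbouring pair included 1. Of all 45 pairs of genes, 4 had an interval that excluded 1, without adjustment for the number of pairs, and all 4 set Fbn2 below another gene: Fbn1, Fn1, Tnc or Thbs1.

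The wild-type ratio over input was higher in introns than in exons at 9 of the 10 genes, and lower at Postn. It was higher in introns at 78.7% of the 12244 protein-coding genes with at least 10 summed tags in each, so the count of 9 is near that share. Introns had 1261 wild-type and 1239 input tags, a ratio of 1.25 (1.15 to 1.35), and exons had 138 and 218, a ratio of 0.775 (0.621 to 0.963). The low exon ratio rested on Fbn1, with 19 and 54 tags, and Tnc, with 8 and 28, and without both it was 0.999 (0.770 to 1.29), while that of introns was 1.13 (1.02 to 1.25). The 20 kb upstream and downstream gave 1.02 (0.882 to 1.17) and 0.995 (0.857 to 1.15). Input tags themselves were at 2.06 times the genome average in exons and 1.18 times in introns. The bodies had a median of 43.6% G and C, against 45.7% for all genes, and relative to genes of like G and C content the summed ratio was 1.25 (1.16 to 1.34).

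The knock-out ChIP was compared with the wild-type ChIP, made with the same antibody, over whole gene bodies and not at the sites alone. Over the bodies with 20 kb on both sides, the 300 bp windows of the 54 sites held 188 of 2088 wild-type tags. A change limited to the sites would move the ratio over a body little, and such a change was not tested with these sums. Over the bodies the ratio of knock-out to wild-type was 0.952 (0.881 to 1.03), and the 10 genes ranged from 0.817 at Postn to 1.02 at Fn1. The interval lay above 1 at 0 genes, against 6.01% of all genes, and below 1 at 0, against 5.79%. Past 1.5-fold higher were 0 of 10 genes, against 9.75% of all genes, and past 1.5-fold lower 0 of 10, against 8.91%. The shares of all genes include every gene with at least 20 summed tags, while the fewest at these bodies were 55 wild-type and 42 knock-out tags, at Postn. They were not matched for tag number, on which passing either limit depends. Relative to the input, the knock-out ChIP had a summed ratio of 1.12 (1.04 to 1.21). One of the 10 genes, Thbs1, exceeded 1.5 in that comparison, against 3.91% of all genes, and 0 fell below its inverse, against 28.8%. The interval lay above 1 at 3 genes, Fn1, Fbn1 and Thbs1, against 4.96% of all genes, and below 1 at none, against 25.2%. Without Fbn1, the gene with the most tags, the knock-out ratio over input was 1.07 (0.979 to 1.18), and the wild-type ratio was 1.15 (1.05 to 1.25). The comparisons share libraries, and the knock-out cells had no input of their own.

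**Figure D3:**
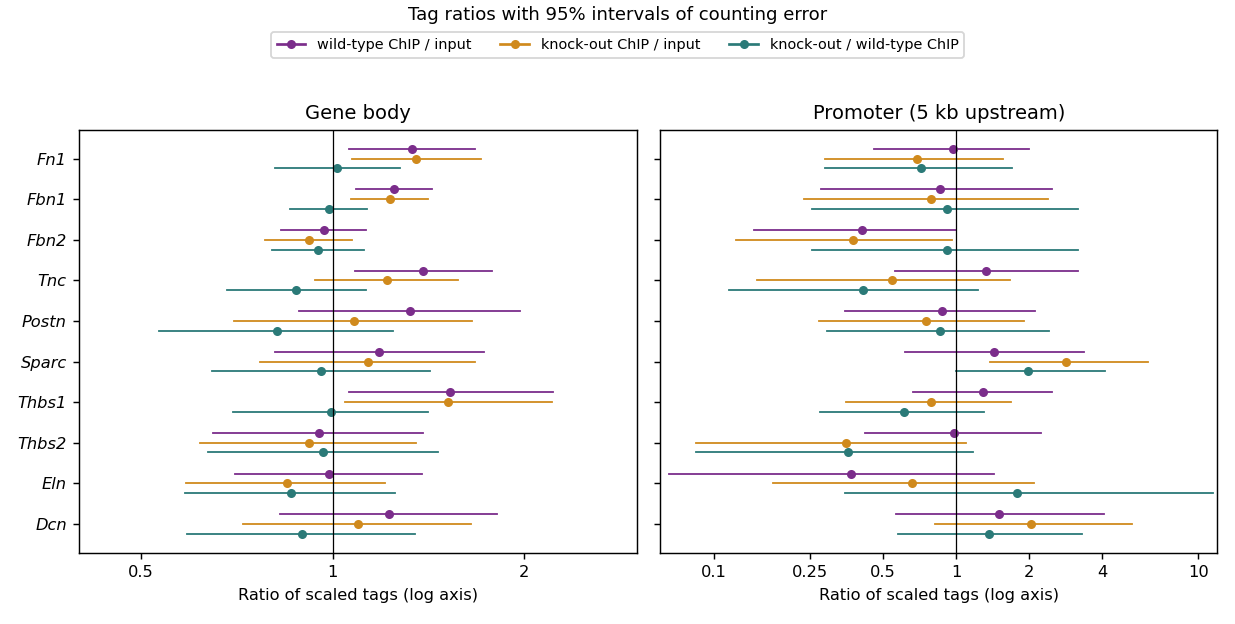
Points are ratios of tags scaled by library totals, on log axes, for each gene's body (left) and 5 kb promoter (right), and lines are 95% intervals of counting error. In the bodies the wild-type and knock-out ratios, both over the 1 shared input, are highest at Thbs1, 1.53 and 1.52, and every knock-out to wild-type interval includes 1, while promoter intervals are wider and the Sparc promoter has the highest knock-out ratio over input, 2.84.

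Promoter tags were few, and their sum showed no excess over the input. The 10 promoters together held 113 wild-type, 96 knock-out and 142 input tags, with a wild-type ratio over input of 0.974 (0.754 to 1.26) and a knock-out to wild-type ratio of 0.909 (0.685 to 1.20). The median wild-type ratio over input was 0.973 for the 10 promoters and 0.765 for all genes with enough tags. For the knock-out ChIP over input these medians were 0.719 and 0.764. Past a wild-type ratio of 1.5 were 0 of 10 promoters, against 14.9% of all genes, and below the inverse were 2, Fbn2 and Eln, against 41.4%. Fbn2 showed 7 wild-type, 6 knock-out and 21 input tags there (0.408, 0.147 to 0.996), and Eln had 3, 5 and 10. Between the ChIP libraries, 1 of the 9 promoters with enough tags was past 1.5-fold higher in the knock-out, against 26% of all genes, and 3 were past 1.5-fold lower, against 25.1%. At such counts a ratio past 1.5 is common, and the intervals of all 9 included 1.

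The promoter with the most knock-out tags was that of Sparc, which had 14, 26 and 12 tags. Its knock-out to wild-type ratio was 1.99 (1.00 to 4.12) and its knock-out ratio over input 2.84 (1.38 to 6.17). Over the input the 10 promoters summed to 0.885 (0.676 to 1.15) in the knock-out ChIP, with 2 of 10 past 1.5, Sparc and Dcn, against 15.5% of all genes, and 4 below its inverse, against 42.6%. Of those 4, the interval excluded 1 at Fbn2 alone, 0.374 (0.124 to 0.958). Of the 26 knock-out tags at Sparc, 7 fell in the 300 bp around the palindrome match at -3840 bp printed above. Tnc had 13, 5 and 12 tags, Thbs1 21, 12 and 20, and Thbs2 12, 4 and 15, the 3 promoters past 1.5-fold lower. Fn1 had 15, 10 and 19, Postn 10, 8 and 14, Dcn 11, 14 and 9, and Fbn1 7, 6 and 10. Without Sparc the summed knock-out to wild-type ratio was 0.756 (0.549 to 1.04). Within 1 kb on either side of the start the sums were 46, 53 and 101, so the knock-out to wild-type ratio was 1.23 (0.815 to 1.87) there. That value depended on single genes. Without Fbn1, with 2 wild-type and 10 knock-out tags, it was 1.05 (0.670 to 1.63). Without Thbs2, with 9 and 2, it was 1.47 (0.947 to 2.32). Input tags in that window stood at 3.15 times their genome average, and wild-type tags over input at 0.557 (0.385 to 0.798). Fn1, with 8 wild-type and 31 input tags, and Fbn2, with 0 and 21, carried that difference, and without both the ratio was 0.949 (0.605 to 1.48).

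At the deposited sites the wild-type tags were high by construction, since these tags chose the sites, and are given as a description. In 300 bp the 54 sites held 188 tags from wild-type cells, 46 from knock-out cells and 44 from input. Single sites ranged from 1 to 7 wild-type tags with a median of 3, from 0 to 5 knock-out tags with a median of 1, and from 0 to 5 input tags with a median of 0.5. These means were 8.86, 2.32 and 1.69 times the genome average. The knock-out ChIP and the input did not choose the sites, and their ratio of 1.37 (0.885 to 2.12) included 1. Over all deposited sites that ratio was 1.12 (1.10 to 1.14), within the interval of the 10 genes. Counting 600 bp gave 1.62 (1.18 to 2.21) at the 54 sites, with an interval above 1. Counting every uniquely mapped tag gave 1.64 (1.19 to 2.29), but this count treats repeated reads of 1 position as independent. Genome-wide, each distinct tag stood on average for 3.45 reads from knock-out cells, against 1.32 for input DNA. The interval of that count is therefore too narrow and cannot place the ratio above 1.

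By gene, the 13 sites of Fbn1 summed to 53, 12 and 6 tags. The 10 sites of Tnc had 29, 6 and 9, and the 8 sites of Thbs1 had 29, 6 and 13. Fn1 and Fbn2, with 7 sites each, had 22, 7 and 3 and 22, 6 and 7 tags. Thbs1 was the gene with the most input tags at its sites, and 2 of its sites, at -987 bp and at 1474 bp in a coding exon, had 4 and 5 input tags against 3 and 4 wild-type tags. The knock-out ChIP had 0 tags at 26 of the 54 sites (48.1%, exact interval 34.3% to 62.2%), compared with 58.4% of all deposited sites, which the interval includes. The input had 0 tags at 27 of the 54 (50%), compared with 53.6% of all. At 3 sites the knock-out ChIP had more tags than the wild-type ChIP: 5 against 4 at an intronic site of Thbs2, 3 against 2 in a coding exon of Fn1, and 2 against 1 in an intron of Fbn2. A count of 0 in 300 bp allows up to 3 tags, which is the median of the wild-type tags at these sites.

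By the count used here, which does not shift tags, few sites had 5 or more wild-type tags in the 300 bp around the deposited interval. They were 7 of the 54 sites (13%), close to the 11.4% of all deposited sites. The authors called the sites at 5 tags in 300 bp with tags shifted by 75 bp. This share therefore does not say how many sites pass that threshold. The 7 sites were 3 of Fbn1, 2 of Thbs1, 1 of Fbn2 and 1 of Eln. In 600 bp, 45 sites (83.3%) had 5 or more, compared with 71.7% of all. The 13 sites of Fbn1 included 2 intronic sites near the end of the gene, 203203 and 205694 bp from its start, with 7 and 6 wild-type tags.

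**Figure D4:**
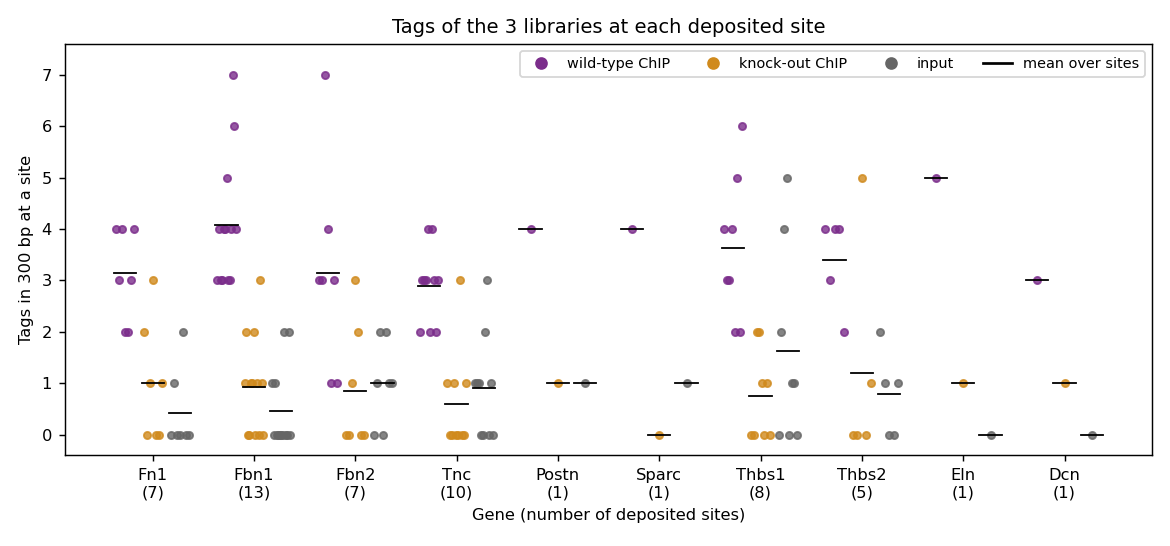
Each point is 1 deposited site, placed by its tags in 300 bp (y axis) and coloured by library, for each gene on the x axis with its number of sites, and short lines are means over the sites of a gene. Wild-type points lie between 1 and 7 because these tags defined the sites, and knock-out and input points lie between 0 and 5.

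Histone methylation regions, defined by the authors from published ChIP-Seq of MEFs, were read at the same loci to ask in what chromatin the genes lie. All 10 genes had an H3K4me3 region within 1 kb of the start, against 64% of all protein-coding genes. All 10 also had an H3K27me3 region there, against 71.1%, and both marks at once, against 55.6%. An H3K36me3 region reached into all 10 bodies, against 56%, and all 3 marks were present at all 10, against 44.3%. The regions are broad, with genome medians of 16.5, 38.8 and 46.3 kb for H3K4me3, H3K27me3 and H3K36me3, so an overlap does not place the marks on the same nucleosomes or in the same cells.

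The marks covered the genes to different extents. H3K4me3 covered 89.5% or more of the body at 8 genes, but 42.2% at Dcn and 12% at Eln, whose region at the start was the shortest at 9.40 kb. H3K36me3 covered 84.1% or more of the body at 9 genes and 33.7% at Dcn, and it lay over the start itself in 5 genes, Fn1, Tnc, Postn, Sparc and Thbs1, against 37.4% of all genes. H3K27me3 separated the genes more than the other marks did. It covered the whole body of Thbs1, Thbs2 and Eln, 89.2% of Fn1 and 64.7% of Postn, but 18.1% of Dcn, 16.4% of Fbn1, 13.1% of Sparc, 5.66% of Tnc and 4.95% of Fbn2. At Sparc the region around the start was 7.67 kb long, while at Thbs1 it was 429 kb long. The Sparc locus also held an H3K27me3 region of 142 kb past the end of the gene, which began 30.5 kb from the start. The median share of the body covered was 100%, 41.4% and 99.7% for H3K4me3, H3K27me3 and H3K36me3, compared with 18.5%, 33.3% and 45.9% over all genes.

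Nearly all sites at these genes lay in H3K4me3 and H3K36me3 regions. Of the 54 sites, 52 (96.3%) were inside H3K4me3, compared with 42.6% of all deposited sites, 48 (88.9%) inside H3K36me3, compared with 35.4%, and 31 (57.4%) inside H3K27me3, compared with 54.4%. The loci themselves were rich in these regions: 82.7% of their bases lay in H3K4me3 and 69.0% in both H3K4me3 and H3K36me3, compared with 18.8% and 10.2% of the genome. Within H3K4me3 regions there were 5.62 sites per 100 kb at the 10 genes and 3.52 in the genome. Within both marks the densities were 6.09 and 3.79. Outside both marks the 10 loci had 1 site in 0.118 megabases, or 0.847 per 100 kb, and the genome 1.02. A single site is too few to compare these 2 densities. These pooled densities rest on 6 genes with 50 of the 54 sites, since Postn, Sparc, Eln and Dcn contributed 4 and lay between 1.20 and 1.52 sites per 100 kb, below the median of all genes.

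A wider list of 37 other matrix genes of fibroblasts, such as fibulins, latent TGF-beta binding proteins, small proteoglycans and lysyl oxidases, gives a setting for the 10. A site lay within 20 kb of 30 of the 37, against 62.9% of all genes, and 7 had one in the promoter, against 11.8%. The 37 genes had 98 sites in all and a median of 2.24 per 100 kb. Over their bodies, 2 of the 34 with enough tags were past 1.5 for the wild-type ChIP over input and 9 below its inverse, with a median of 0.849, close to the 0.852 of all genes, where 3.72% and 29.6% passed these limits. The densest were Cyr61 (6 sites, 13.9 per 100 kb) and Ctgf (4 sites, 9.25), both matricellular proteins induced by growth factors. They were followed by Thbs3 (4 sites, 7.74), another thrombospondin, by Ltbp3 (4 sites, 6.94), which binds latent TGF-beta, and by Emilin1 (3 sites, 6.27), an elastic fibre protein. Of the wider list, 36 had H3K4me3 and 30 had H3K27me3 at the start, against 64% and 71.1% of all genes, and 33 had H3K36me3 in the body, against 56%.

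Marker genes of cell types were read as site counts, tag ratios and histone regions, since no RNA was measured in these libraries. The regions come from published MEFs and do not check the cells used here. All 8 fibroblast marker genes (Vim, Col1a1, Col1a2, Col3a1, Pdgfrb, Thy1, S100a4 and Twist1) had H3K4me3 at the start and H3K36me3 in the body, against 64% and 56% of all genes, and all 8 had H3K27me3, against 71.1%. They had 27 NFI sites, a median of 5.28 per 100 kb, above the 4.08 of the matrix genes, and a promoter site in 4 of the 8, against 11.8% of all genes. Over the bodies of the 6 with enough tags the median wild-type ratio over input was 0.914, below the 1.24 of the matrix genes, with 0 past 1.5 and 1 below its inverse, against the 3.72% and 29.6% of all genes. Of 11 markers of blood, epithelial, endothelial and liver cells, 2 had H3K4me3, 10 had H3K27me3 and 0 had H3K36me3, against 64%, 71.1% and 56% of all genes. Their 13 sites gave a median of 0 per 100 kb with no promoter site, against 11.8% of all genes with one. For the 9 of these markers with enough tags the median body ratio of wild-type over input was 0.873, with 1 past 1.5 and 2 below its inverse, against 3.72% and 29.6% of all genes. Knock-out over wild-type had a median of 1.22 over 10 of these markers, with 2 past 1.5-fold higher and 0 lower, against 9.75% and 8.91% of all genes. That median was 0.882 over 5 fibroblast markers, with 0 past either limit, 1.06 over 32 genes of the wider list, with 1 past each, and 0.953 over the 10 matrix genes.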

How the data were processed

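ChIP-Seq libraries of NFI in wild-type and NFI-C knock-out MEFs and of wild-type input were used, 1 per condition. The authors mapped the reads with ELAND to mm9 (version not given in the sources used here) and deposited each read with its counts of matching places, position and strand, without normalization. The deposited NFI sites are 16 bp intervals called by the authors on the wild-type library with ChIP-peak (window 300 bp, vicinity 300 bp, threshold 5 tags, tag shift 75 bp, repeat filter). The deposited histone regions are positions of rich regions from published MEF data. The thresholds behind them are not given in the sources used here.

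Tags that mapped to a single place on chromosomes 1 to 19, X or Y were counted at their 5′ end, with no more than 1 for each position and strand. ELAND aligns the first 32 bases, which set the 5′ end on the reverse strand. Genes were taken from GENCODE vM1 on NCBI build 37. Site midpoints were assigned to gene bodies with 20 kb on both sides and to promoters of 5 kb. Ratios needed at least 20 summed tags over a body or 10 over a promoter, and a fold of 1.5 was read as past the limit. Site counts used 300 bp, and palindrome matches allowed 2 mismatches. The scripts were tested on simulated tags. Python 3.11.15, NumPy 2.4.6, SciPy 1.17.1 and matplotlib 3.10.9 were used.

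The 10 genes, the wider list and the markers were chosen with earlier results of these data known. All 10 genes are named. Of the wider list, the 5 with the most sites per 100 kb are named. Alternatives covered tag filters, groups of reads, scaling, windows and site definitions. Lamina and miRNA lists were not used here.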

Additional observations from a re-analysis of the deposited data

How the results depend on the processing

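With 1 library per condition, precision rests on counting alone. Of 103 alternative values, 94 stayed within the reported 95% interval of a ratio or within 1.5 times a count, and 9 did not. Some of the 94 could not have changed. These include wider windows for a count already at all 10 genes and fewer mismatches for a count of 0. Among the summed ratios varied here, only wild-type and knock-out over input in the bodies had a main interval that excluded 1. Both ratios stayed above 1 in every alternative. Requiring 5 or more wild-type tags in 300 bp left 7 sites in place of 54, 4 genes with a site in place of 10, and 0 with a promoter site in place of 5. That count used unshifted tags, unlike the authors' calling, so it does not repeat their threshold. A promoter of 1 kb upstream left 1 gene with a site. Scaling by the median over all genes gave 1.32 for the wild-type and 1.25 for the knock-out ChIP over input in the gene bodies. Within 1 kb on either side of the start, wild-type over input was 0.557 and knock-out over wild-type, reported as 0.909 with an interval that included 1, was 1.23. The single palindrome arm gave 10 sites in place of 0. The cause of these shifts was not tested beyond the construction of each alternative. Reads were grouped by the start of their names, with 3 groups in each ChIP library and 2 in the input. Whether these groups were runs or flow cell channels was not determined. Leaving out each group in turn gave 1.14 to 1.19 for wild-type over input in the bodies. Knock-out over wild-type was 0.940 to 0.968 there, and knock-out over input 1.09 to 1.14. In the promoters the first 2 ratios were 0.915 to 0.993 and 0.891 to 0.957. At the sites knock-out over input was 1.29 to 1.55. Without group 2 of the input the interval of knock-out over input in the bodies, 0.992 to 1.20, included 1. Leaving out genes within 1 kb of the start and in exons and introns was chosen after seeing the data. No paired analysis was possible because each condition had 1 library.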
